A study of Mus musculus with 7 samples.

Results

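Il10, Il6 and Il16 are the interleukin genes whose transcripts are described here, in splenic B cells that lack or carry Batf. They were chosen by gene symbol from the deposited table of expression values, 3 of its 752 genes. Each passed a minimum mean of 1 CPM, the read count scaled to a common library total. The series holds 3 Batf KO and 4 wild-type libraries, each taken as the B cells of 1 mouse spleen. All mice were on the C57BL/6J background, and the cells were isolated on magnetic columns and kept for 6 h in culture with LPS (20 µg/mL), a bacterial ligand of the Toll-like receptor TLR4, and IL-4 (20 ng/mL) before RNA was extracted. Both genotypes therefore received the same stimulus, and there was no unstimulated control. Further details, namely the knockout allele, the age of the mice and what the design text means by 2 replicates per sample, were not given in the sources used here.

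IL-10 is an anti-inflammatory cytokine that acts through the IL10RA and IL10RB chains and STAT3 to restrain inflammatory gene expression, and B cells that make it are known as regulatory B cells. IL-6 is a largely proinflammatory cytokine that signals through IL6RA, gp130 and STAT3. B cells release it after Toll-like receptor stimulation, and it supports plasma cells and follicular helper T cells. IL-16 is made as a long precursor that is cleaved inside the cell. The released carboxy-terminal part is a ligand of CD4 that attracts CD4+ cells, whereas the amino-terminal part enters the nucleus. BATF, a basic leucine zipper factor, pairs with JUN proteins on AP-1 sites and with IRF4 or IRF8 on composite elements of an AP-1 and an IRF site.

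The deposited table holds only genes that differed between the genotypes at a false discovery rate (FDR) below 0.05 in the authors' own test, which called 3.81% of the 19734 genes they tested. That each of the 3 cytokines differs between the genotypes was therefore a condition for its being in the table, and the tests below are not independent evidence of it. Of the 667 genes of the table that could be fitted, 42.9% passed the stricter test used here: 20.1% higher and 22.8% lower in Batf KO. The groups did not overlap for 96.1%. With scaling factors computed on the table itself the calls were 112 higher and 198 lower, against 134 and 152. Effective library sizes were 23675459 to 44728937 reads. Batf itself fell by 2.26 on the log2 scale (SE 0.07), from 319 ± 11.2 CPM (n = 4, SD) to 66.5 ± 3.49 CPM (n = 3, SD), so the libraries followed their labels. Of 6 B cell markers, Ms4a1, which encodes CD20, alone has values here. It rose from 580 ± 39.6 CPM (n = 4, SD) to 879 ± 40.9 CPM (n = 3, SD), 1.52-fold (adjusted p = 0.00392, edgeR). The change passed whichever library was left out (adjusted p of 0.00727 to 0.0339).

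Il10 rose in Batf KO. It was measured at 8.88, 9.20, 8.41 and 8.08 CPM in wild-type replicates 1 to 4, and at 37.5, 34.1 and 20.3 CPM in Batf KO replicates 1 to 3. The wild-type libraries lay close together, and each Batf KO library was above all of them, with the third well below the other two. The means were 8.64 ± 0.50 CPM (n = 4, SD) and 30.6 ± 9.08 CPM (n = 3, SD), a 3.55-fold increase (log2 fold change 1.83, SE 0.19, adjusted p = 0.00242, edgeR quasi-likelihood test). The exact permutation p over the 35 ways to split the libraries was 0.0286, the smallest they can give. Il10 had the third highest fold change of the fitted genes. The gene (ENSMUSG00000016529) spans 5.13 kb on chromosome 1, from 131019845 to 131024974 on the plus strand of GRCm38, and overlaps no other annotated gene. Its rise came with 2555 reads in the 3 Batf KO libraries and 1208 in the 4 wild-type libraries, so its level was not limited by read number.

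**Figure D1:**
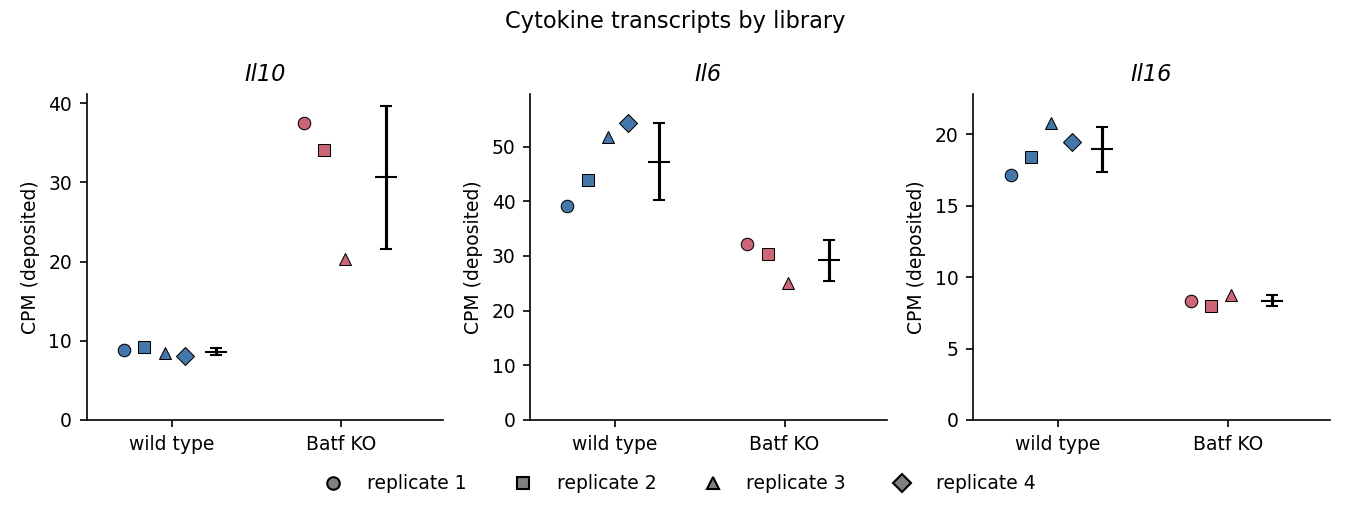
Deposited CPM of Il10, Il6 and Il16 in each library, with marker shape for the replicate and a bar for the mean ± SD of 4 wild-type and 3 Batf KO libraries. Il10 was higher in all 3 Batf KO libraries (20.3 to 37.5 CPM against 8.08 to 9.20), and Il6 and Il16 were lower in all 3.

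The Batf KO libraries differed in Il10 by more than read sampling allows. The coefficient of variation among them was 29.7%, where counting error alone gives 3.43%. The median over the fitted genes was 8.89%, and 4.798% of genes varied more. In wild type the coefficient was 5.77%, beside a counting error of 5.75%. Batf KO replicate 3 had 56.8% of the mean Il10 level of replicates 1 and 2, and 7 of the 667 fitted genes were further down in that library. Without it the log2 fold change was 2.05 (adjusted p = 0.000522, edgeR), and the change passed whichever library was left out (1.65 to 2.05).

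Il6 was lower in Batf KO, but the difference did not pass the test. It was measured at 39.1, 43.9, 51.8 and 54.3 CPM in wild-type replicates 1 to 4, and at 32.2, 30.4 and 25.0 CPM in Batf KO replicates 1 to 3. The groups did not overlap, although the gap between them was narrow beside the spread within wild type. The means were 47.3 ± 7.03 CPM (n = 4, SD) and 29.2 ± 3.73 CPM (n = 3, SD), so that Batf KO had 61.8% of the wild-type level. The log2 fold change was -0.69 (SE 0.14, adjusted p = 0.0527, edgeR quasi-likelihood test). By exact permutation the p was 0.0571. In the authors' deposited table Il6 has a log2 fold change of -0.69 and an FDR of 3.48e-05. The gene (ENSMUSG00000025746) lies on chromosome 5, from 30013114 to 30019981 on the plus strand of GRCm38, a span of 6.87 kb that overlaps no other annotated gene.

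Il6 varied among the wild-type libraries, with a coefficient of variation of 14.9%, and 30.3% of fitted genes varied more. The pairs below follow the title numbers and were not shown to be separate groups. Replicates 1 and 2, whose title numbers are next to those of the Batf KO libraries, had a mean of 41.5 CPM, and replicates 3 and 4 had 53.0 CPM, 1.28 times as much. Against the first pair alone the log2 fold change was -0.51 (adjusted p = 0.276, edgeR), and against the second pair -0.86 (adjusted p = 0.0137). What the title numbers stand for was not given in the sources used here. Without wild-type replicate 1 Il6 passed (adjusted p = 0.0355). Without any other single library it did not, and the highest adjusted p was 0.201, without Batf KO replicate 3. Il10 and Il16 passed against either pair, Il10 with log2 fold changes of 1.76 (adjusted p = 0.0492) and 1.89, and Il16 with -1.09 and -1.27. For Il10 the order of the pairs was the opposite, 9.04 CPM in replicates 1 and 2 and 8.24 CPM in replicates 3 and 4.

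**Figure D2:**
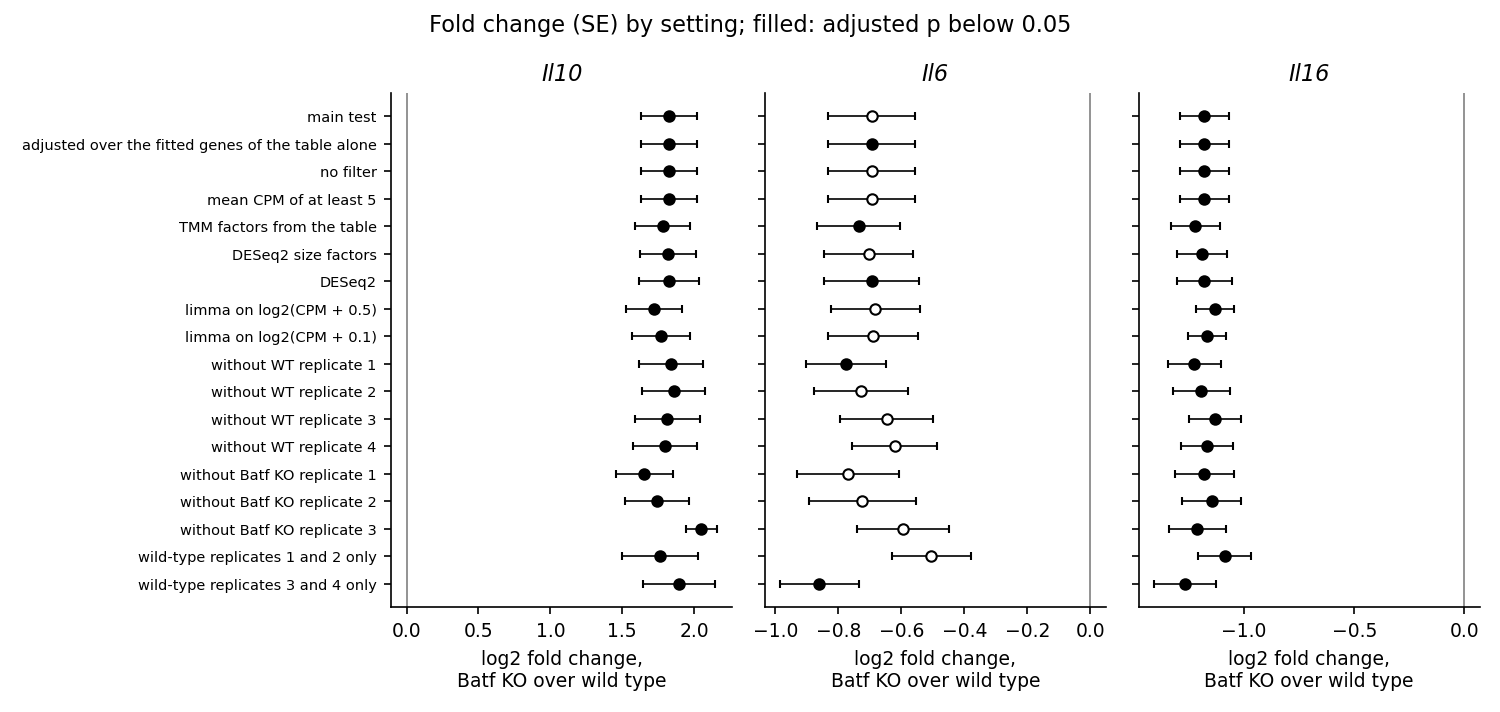
Log2 fold change of each cytokine (Batf KO over wild type, error bars SE) under the main test and each alternative, each panel with its own scale; filled points have an adjusted p below 0.05. Il10 and Il16 are filled throughout, whereas Il6 is open in the main test and moves between -0.51 and -0.86 with the wild-type libraries used.

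The stretch of DNA just before the Il6 start, where AP-1 and NF-kappaB factors are known to bind, is shown because the study removes an AP-1 family factor. It is the 250 bases before the RefSeq start (GRCm38.p6, chr5:30012864-30013113, plus strand, written 5′ to 3′), and capitals mark the motif matches.
Il6: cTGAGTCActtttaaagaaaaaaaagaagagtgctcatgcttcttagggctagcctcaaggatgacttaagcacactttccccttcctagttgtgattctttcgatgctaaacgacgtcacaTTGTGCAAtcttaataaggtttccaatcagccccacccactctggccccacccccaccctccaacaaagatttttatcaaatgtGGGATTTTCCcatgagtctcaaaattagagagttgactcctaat
The first run of capitals matches the AP-1 motif TGANTCA, 249 to 243 bases before the start. The second matches the C/EBP motif TTGCNNAA on the minus strand (128 to 121 bases before), and the third the NF-kappaB motif (44 to 35 bases before). Of 32851 promoter windows of the same length, 6.75% held the AP-1 motif, 9.56% the C/EBP motif and 7.25% the NF-kappaB motif. Both strands were searched. A match is a description of the letters and does not show that a factor was bound.

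Il16 fell in Batf KO. It was measured at 17.2, 18.4, 20.8 and 19.4 CPM in wild-type replicates 1 to 4, and at 8.36, 7.98 and 8.74 CPM in Batf KO replicates 1 to 3. Each Batf KO library was far below each wild-type library, and the Batf KO libraries were nearly level. The means were 18.9 ± 1.54 CPM (n = 4, SD) and 8.36 ± 0.38 CPM (n = 3, SD), a 2.27-fold decrease (log2 fold change -1.18, SE 0.11, adjusted p = 0.00130, edgeR quasi-likelihood test). The exact permutation p was 0.0286. The coefficient of variation among Batf KO libraries was 4.58%, which is within the counting error of 6.64%. The change passed whichever library was left out (log2 fold change -1.23 to -1.13).

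Il16 (ENSMUSG00000001741) is a long gene, 102.9 kb on chromosome 7 from 83642825 to 83745726 on the minus strand of GRCm38. Its transcripts begin at different places, and RefSeq lists 3 starts with a promoter window. The annotated span reaches further upstream than any of these windows. The most upstream of the 3 starts and the most internal one are shown, since counts per gene do not tell which of the transcripts fell. These are 250 bases each before the start, minus strand, written 5′ to 3′: chr7:83735540-83735789 for the upstream start and chr7:83655496-83655745 for the internal start (GRCm38.p6), with motif matches in capitals.
Il16 upstream start: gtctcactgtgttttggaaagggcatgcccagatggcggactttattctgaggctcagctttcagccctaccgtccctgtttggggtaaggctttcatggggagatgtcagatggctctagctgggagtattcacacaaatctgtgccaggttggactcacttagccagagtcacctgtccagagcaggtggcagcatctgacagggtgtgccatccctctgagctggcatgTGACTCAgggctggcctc
Il16 internal start: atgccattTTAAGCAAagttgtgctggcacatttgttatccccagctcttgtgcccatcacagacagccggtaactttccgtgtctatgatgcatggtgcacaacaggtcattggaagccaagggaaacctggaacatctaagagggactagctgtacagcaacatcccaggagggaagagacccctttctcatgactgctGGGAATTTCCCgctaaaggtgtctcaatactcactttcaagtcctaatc
The upstream window matches the AP-1 motif TGANTCA 18 to 12 bases before the start. The internal window has a C/EBP match on the minus strand (242 to 235 bases before) and overlapping NF-kappaB matches on both strands, from 49 to 39 bases before. The remaining window (chr7:83732399-83732648) held none of the motifs searched.

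The other motifs searched were not found in the 4 windows of Il6 and Il16, the 2 of 3 cytokines that matched the promoter table. They were the 2 kinds of AICE, the composite AP-1 and IRF elements that BATF shares with IRF4, both of which contain the AP-1 motif (0.0670% and 0.0761% of all windows), the NFIL3 motif TTANGTAA (2.06%) and the E-box CACGTG that BHLHE40 recognises (6.02%). The Il16 span also holds 10.3 kb of Stard5, 2310044K18Rik (both plus strand) and the pseudogene Phgdh-ps1. The strand setting of the counting was not given in the sources used here, so reads of Il16 and of Stard5 in their shared stretch cannot be told apart. Stard5 has no value here.

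Read counts of the 3 cytokines were also set against each other within each library, which removes the scaling between libraries. Wild-type libraries had 0.227, 0.210, 0.162 and 0.149 Il10 reads per Il6 read, and Batf KO libraries had 1.17, 1.12 and 0.813. Il10 reads were thus a minority beside Il6 reads in each wild-type library and about as many in Batf KO. The mean ratio was 0.187 ± 0.037 (n = 4, SD) in wild type and 1.03 ± 0.192 (n = 3, SD) in Batf KO, a 5.52-fold difference. Per Il16 read there were 0.404 to 0.518 Il10 reads in wild type and 2.32 to 4.48 in Batf KO. Il6 reads per Il16 read ran from 2.28 to 2.79 in wild type and from 2.86 to 3.84 in Batf KO. The means were 2.49 ± 0.221 (n = 4, SD) and 3.50 ± 0.559 (n = 3, SD), a 1.41-fold difference, so Il16 was lower relative to Il6 in Batf KO. The gap between the groups was small, with Batf KO replicate 3 the nearest to wild type. These ratios are built from the values above and were given no test.

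**Figure D3:**
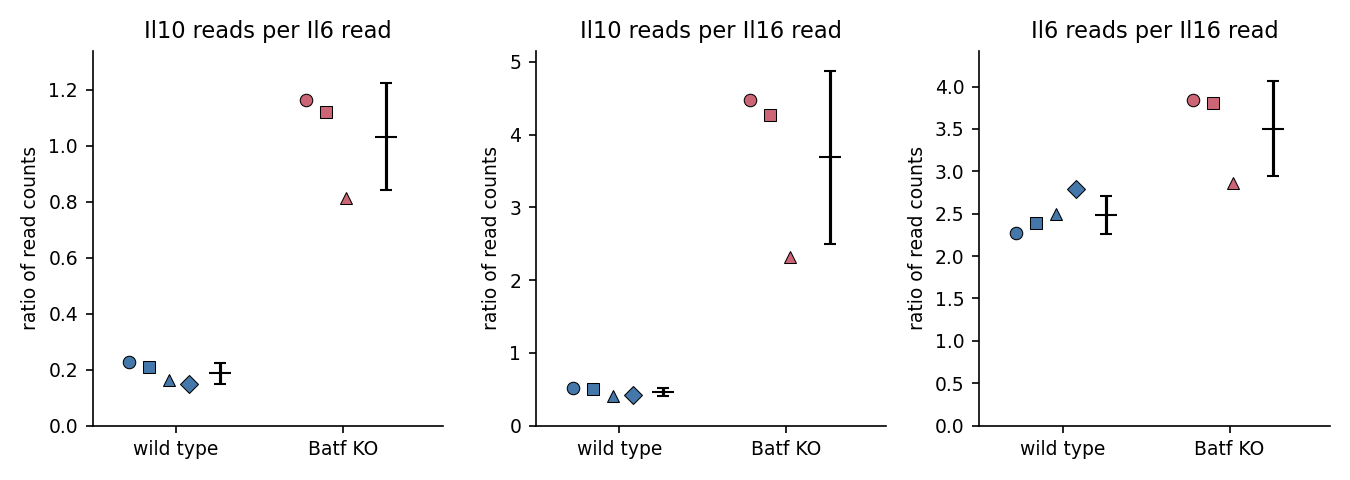
Ratios of read counts within each library, with marker shape for the replicate (circle 1, square 2, triangle 3, diamond 4) and a bar for the mean ± SD. Il10 reads per Il6 read were 0.149 to 0.227 in wild type and 0.813 to 1.17 in Batf KO, with Batf KO replicate 3 lowest.

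Levels of different genes were compared per kb of merged exon length (1.31 kb for Il10, 2.43 kb for Il6 and 7.87 kb for Il16, GENCODE M21). In wild type Il6 had the highest level, 19.5 ± 2.90 CPM per kb (n = 4, SD), followed by Il10 at 6.60 ± 0.38 and Il16 at 2.41 ± 0.20. In Batf KO Il10 came first, at 23.4 ± 6.93 CPM per kb (n = 3, SD), then Il6 at 12.02 ± 1.53 and Il16 at 1.06 ± 0.05. No neighbours in either order overlapped: in Batf KO the lowest Il10 level was 15.5 CPM per kb and the highest Il6 level 13.2. The merged length of Il16 joins transcripts that may not be present together.

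Among other secreted factors 7 genes were in the table, and of the 6 that were fitted 1 rose, Lif, where 20.1% of all fitted genes did. These lists and those below were drawn up with earlier results of these data known, so their share in the table is no evidence about them. The table holds 3.81% of the genes the authors tested, 384 higher and 368 lower in Batf KO. Of 29 further interleukin genes, Il1b, Il1rn and Il19 were in the table, and of 34 genes of the TNF family, interferons, growth factors and chemokines, Lif, Ccl3, Ccl4 and Cxcl10. Lif, a cytokine of the IL-6 family that signals through gp130, rose from 1.83 ± 0.31 CPM (n = 4, SD) to 4.81 ± 0.98 CPM (n = 3, SD), a 2.64-fold increase (adjusted p = 0.0123, edgeR). It did not pass without Batf KO replicate 1 (adjusted p = 0.0557) or 2 (0.0713). The remaining fitted genes did not pass. Their log2 fold changes were 0.69 for Il1b, which encodes IL-1 beta, 0.67 for Il1rn, which encodes its receptor antagonist, and 0.91, 0.67 and 0.85 for the chemokine genes Ccl4, Ccl3 and Cxcl10, with adjusted p from 0.0512 (Ccl4) to 0.153 (Ccl3). Without Batf KO replicate 3, Ccl4 (adjusted p = 0.0156) and Il1rn (0.0311) passed. Over all fitted genes the median log2 fold change was 0.30, with 339 of 667 higher. The median absolute change was 0.61, so 0.30 is not the size of a typical change, here and below.

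Batf KO replicate 3 was the lowest of its group for Il10, Il6, Il1b, Il1rn, Lif, Ccl3, Ccl4, Cxcl10 and Socs3, and the highest for Il16. In that library Il1rn, Ccl4, Cxcl10 and Il1b had 65.0%, 64.0%, 65.1% and 67.3% of the mean of replicates 1 and 2, and Il6 had 80.0%. Replicate 3 was lowest for 39.7% of all fitted genes and for 52.8% of those higher in Batf KO, and the median gene had 98.1% of the mean of the other two. It was also the shallowest library, at 23675459 reads. The part of depth or of the cells in that culture in these values was not tested. In bulk RNA, fewer cells making a transcript and less of it per cell cannot be told apart.

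**Figure D4:**
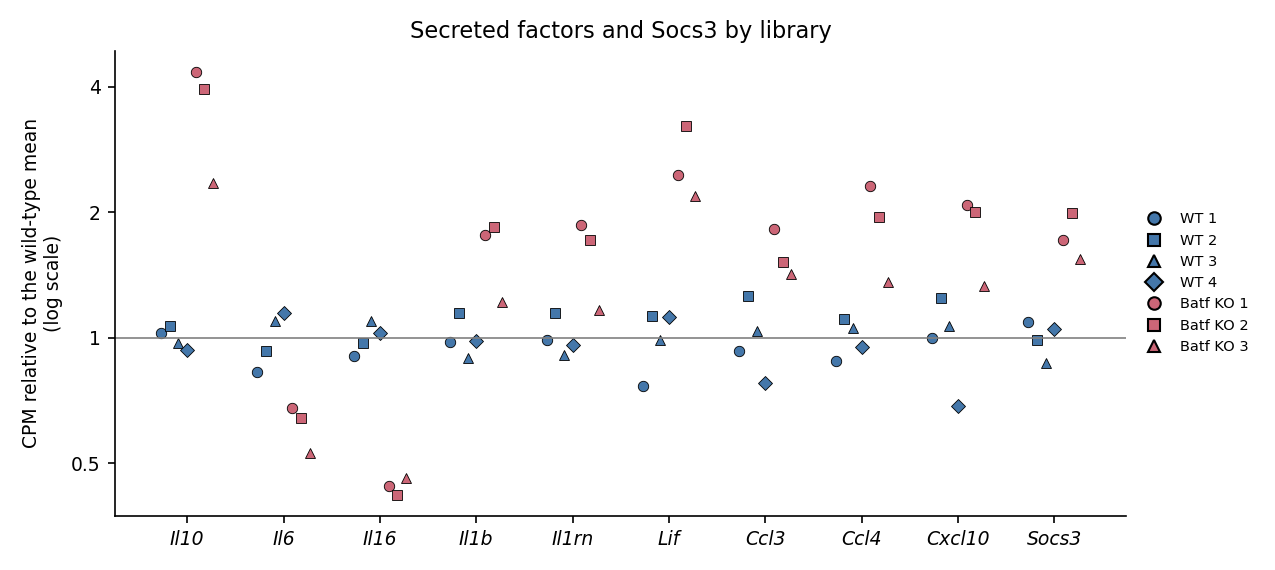
CPM of 9 secreted factors and Socs3 in each library, divided by the wild-type mean and drawn on a log scale. Il6 and Il16 lie below the line in Batf KO and the other genes above it, and the Batf KO triangle (replicate 3) is the lowest of its group for each gene except Il16, for which Batf KO replicate 2 is lowest.

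Of 8 genes for the IL-10 receptor and its signalling, Socs3 and Il10ra were in the table. Socs3, the STAT3-induced feedback inhibitor of gp130 signalling, rose from 90.3 ± 8.63 CPM (n = 4, SD) to 158 ± 20.5 CPM (n = 3, SD), 1.75-fold (adjusted p = 0.00710, edgeR). Against wild-type replicates 1 and 2 alone its adjusted p was 0.0585. Il10ra, the ligand-binding chain of the IL-10 receptor, was 38.9 ± 4.53 CPM (n = 4, SD) in wild type and 51.3 ± 4.45 CPM (n = 3, SD) in Batf KO and did not pass (adjusted p = 0.193). Socs3 was also the single gene in the table among 10 for the IL-6 receptor and its signalling. For IL-16, of 7 genes for its receptor and processing, the table held Cd9, a tetraspanin described as an alternative receptor, at 9.34 ± 1.82 CPM (n = 4, SD) and 13.8 ± 1.87 CPM (n = 3, SD), which did not pass (adjusted p = 0.329). Genes of these lists that are not in the table, such as Stat3 and Il6ra, have no level here.

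Of 24 other interleukin receptor genes 7 were in the table, 4 higher and 3 lower, where the whole table has 384 higher and 368 lower. Il4ra, the receptor chain for the IL-4 in the culture, fell 1.65-fold (adjusted p = 0.000785, edgeR), and Il21r, the receptor of a helper T cell cytokine, fell 1.43-fold (adjusted p = 0.00275). Il2ra (log2 fold change 0.45), Il9r (0.61) and Il12rb1 (-2.55) did not pass, with adjusted p of 0.0561, 0.130 and 0.0706. Il2ra and Il12rb1 passed without wild-type replicate 4 (0.0235 and 0.0239). The 5 fitted genes had a median log2 fold change of -0.52, beside 0.30 for all fitted genes. Of these 5, 2 fell and none rose, where 22.8% of all fitted genes fell and 20.1% rose. Il1r2 and Il23r, both higher in Batf KO, lay below the CPM filter and are left out of these values. Without the filter their log2 fold changes were 1.12 and 3.15. Il1r2 then passed (adjusted p = 0.0395, edgeR) and Il23r did not (0.0993).

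Of 28 genes described as regulators of Il10 in lymphocytes or macrophages 12 were in the table, with 3 that rose and 4 that fell, and a median log2 fold change of -0.49 (-0.31 without Batf itself). Of all fitted genes 20.1% rose and 22.8% fell, and their median was 0.30. Irf4, the partner of BATF and a regulator of Il10 in lymphocytes, rose from 662 ± 68.8 CPM (n = 4, SD) to 1442 ± 108 CPM (n = 3, SD), 2.18-fold (adjusted p = 0.000664, edgeR). Jun, an AP-1 subunit, rose 1.81-fold and Nfatc1, a calcium-responsive factor, 1.54-fold. Bhlhe40, a repressor of Il10 in T cells, fell 2.16-fold, from 124 ± 15.1 CPM (n = 4, SD) to 57.2 ± 4.34 CPM (n = 3, SD; adjusted p = 0.00167, edgeR). Nfil3, a factor that promotes Il10 in T helper cells, fell 3.31-fold, and Crem, a cAMP-responsive factor, 1.596-fold, the remaining gene that fell being Batf. Ahr (-1.07), Prdm1 (-0.73), Creb1 (-0.31), Dusp1 (0.85) and Zfp36 (0.33, whose protein destabilises cytokine mRNAs) did not pass, their log2 fold changes being given in parentheses. Jun did not pass without Batf KO replicate 1 (0.0663) or 2 (0.0593). Crem passed with an adjusted p of 0.0444 and kept this in 1 of 7 fits with a library left out, in which the range was 0.0460 to 0.128. Ahr passed without wild-type replicate 2 (0.0410).

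Of 18 genes described as regulators of Il6, 10 were in the table and 9 fitted, with 2 that rose (Jun and Irf5), 1 that fell (Batf) and a median log2 fold change of 0.30. The median over all fitted genes was also 0.30, and 20.1% of them rose and 22.8% fell. Irf5, a factor of Toll-like receptor signalling, rose 1.33-fold from 221 ± 10.2 CPM (n = 4, SD) to 295 ± 18.6 CPM (n = 3, SD; adjusted p = 0.0178, edgeR). It did not pass without Batf KO replicate 1 (0.0887) or 2 (0.0877), and Jun, as above, without the same libraries. Arid5a, whose protein stabilises Il6 mRNA, was 208 ± 13.9 CPM (n = 4, SD) in wild type and 149 ± 18.6 CPM (n = 3, SD) in Batf KO and did not pass (adjusted p = 0.0525), though it did without wild-type replicate 2 (0.0460). Atf3, a repressor of Toll-like receptor responses, had a log2 fold change of 0.71 (adjusted p = 0.130), and passed without that same library (0.0351). Tet2, which encodes an enzyme of DNA demethylation and represses Il6 in myeloid cells, had 0.30 (adjusted p = 0.127).

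**Figure D5:**
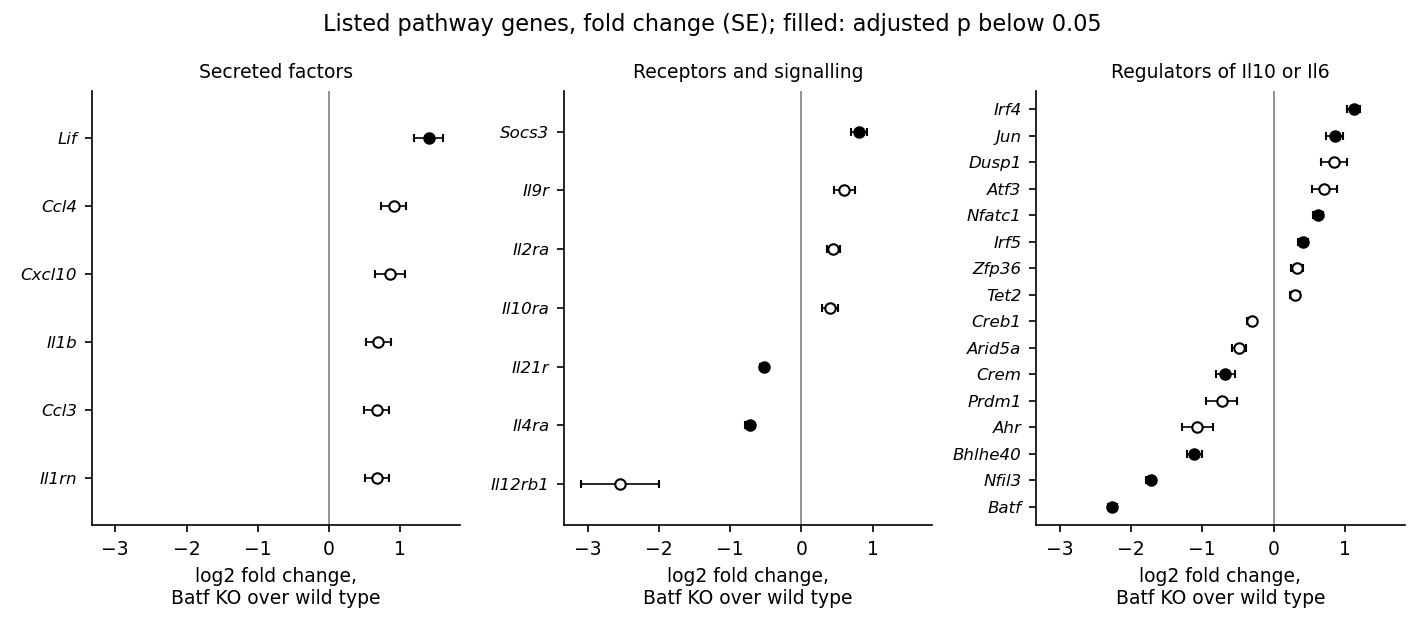
Log2 fold change (Batf KO over wild type, error bars SE) of listed secreted factors, receptor and signalling genes, and regulators of Il10 or Il6; filled points have an adjusted p below 0.05. The 3 cytokines themselves, of which Il6 and Il16 were lower, are not drawn. All 6 other fitted secreted factors lie to the right of 0, as do 339 of all 667 fitted genes. Lif alone is filled among them, and the regulators lie on both sides.

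Of 20 genes used to mark regulatory B cells 5 were in the table, and 3 of these rose, where 20.1% of all fitted genes did. Their median log2 fold change was 0.57, beside 0.30 for all fitted genes, of which 339 of 667 were higher. Cd274, which encodes the inhibitory ligand PD-L1, rose 1.5-fold from 144 ± 9.65 CPM (n = 4, SD) to 216 ± 23.6 CPM (n = 3, SD; adjusted p = 0.0132, edgeR). Cd86 and Cd40, costimulatory molecules of any activated B cell, rose 1.49-fold (adjusted p = 0.0264) and 1.26-fold (adjusted p = 0.0261). Cd24a (0.39) and Cd9 (0.57), with log2 fold changes in parentheses, did not pass, and the groups overlapped for Cd24a. Cd274 did not pass without Batf KO replicate 1 (0.0692) or 2 (0.0661). Cd86 lost its call in 5 of 7 fits with a library left out and Cd40 in 6 of 7, each with a highest adjusted p of 0.140.

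Il10 and Il6 are also made by other cells that a spleen preparation can hold. Of 13 myeloid markers the table held Zbtb46, at 56.4 ± 7.49 CPM (n = 4, SD) in wild type and 81.4 ± 8.0 CPM (n = 3, SD) in Batf KO, which did not pass (adjusted p = 0.0744) except without wild-type replicate 4 among the libraries left out (0.0447). Of 12 T and NK cell markers it held Cd8b1, which rose from 2.05 ± 0.61 CPM (n = 4, SD) to 6.46 ± 1.12 CPM (n = 3, SD; adjusted p = 0.0130, edgeR), but not without Batf KO replicate 1 (0.0805) or 2 (0.0765). Of 5 mast cell and basophil markers it held Kit, with 50 reads in wild type and 117 in Batf KO. Marginal zone and B1 cells are B cells known to make IL-10, and of 8 of their markers the table held Zbtb32 (log2 fold change -1.15), Bhlhe41 (0.94) and Cd9, none of which passed. Bhlhe41 passed without wild-type replicate 4 (0.00884). Of 5 plasma cell markers it held Irf4 and Prdm1, given above, and of 6 B cell markers Ms4a1, which rose, as also given above. The other markers have no level here, so a summed level could not be formed, and the part of such cells in the cytokine values was not tested.

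The genes near each cytokine were counted against the table, which holds 3.81% of the 19734 genes the authors tested. The counts below are of all annotated genes, and 18 near Il10, 14 near Il6 and 7 near Il16 were protein coding. How many of them the authors tested is not known, so the 3.81% is not a matching share. Within 500 kb of Il10, 2 of 36 annotated genes were listed: Fcmr, the IgM Fc receptor gene (139 kb away, 28.4 ± 5.89 CPM, n = 4, SD, in wild type and 43.8 ± 6.63 CPM, n = 3, SD, in Batf KO, adjusted p = 0.192), and the IL-10 family gene Il19. Within 500 kb of Il6, 1 of 29 was listed, Garem2, which fell 1.93-fold (adjusted p = 0.0317, edgeR) and did not pass when any single library was left out (0.0605 to 0.153). Within 500 kb of Il16, 1 of 30 was listed, Tlnrd1, whose log2 fold change of 0.37 did not pass (adjusted p = 0.0804).

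The genes whose log2(CPM + 0.5) followed each cytokine most closely over the 7 libraries were named as a description. Every gene of the table differs between the genotypes, so high correlations are common among them. For Il10 they were Tagln2 (Pearson r = 0.993), Gadd45b (0.990) and Ggps1 (0.987), which rose 1.52-fold, 1.54-fold and 1.30-fold. Tagln2 did not pass without Batf KO replicate 2 (adjusted p = 0.0502, edgeR), and Ggps1 in no fit with a library left out (0.0922 to 0.223). For Il6 they were Nedd4 (0.994), Stau2 (0.987) and ENSMUSG00000071286 (0.985), which is listed without a name. None of them passed in the main test (adjusted p of 0.0512, 0.116 and 0.0637), and of the fits with a library left out Nedd4 passed in 1, without wild-type replicate 2 (0.0422). With DESeq2 all 3 passed (0.000208, 0.00766 and 0.000857), where 265 higher and 304 lower genes of the 667 fitted did. They also passed when adjusted over the fitted genes of the table alone, as every fitted gene did, so that pass says nothing of these 3. Nedd4 also passed with no filter (0.0490), with TMM factors (0.0331) and with wild-type replicates 3 and 4 only (0.0113), and ENSMUSG00000071286 with TMM factors (0.0415). For Il16 they were Auh (0.996), Lat2 (0.996) and Kif3b (0.996), which fell 2.17-fold, 6.53-fold and 1.93-fold. Of the 666 other fitted genes, 62 had r above 0.95 with Il10, 24 with Il6 and 113 with Il16.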

How the data were processed

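RNA of B cells was read in paired ends on a HiSeq instrument, per the labels' protocols. The 4 wild-type and 3 Batf KO libraries were each taken as 1 mouse. Tools named without roles in the submitters' processing notes are HTSeq 0.5.3p7, TopHat2 2.0.6 and edgeR 3.03, with the build mm10. Annotation, strand setting and handling of multi-mapping reads were not given in the sources used here.

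The deposited table gives read counts and CPM per library, per the file headers. It also gives the authors' log2 fold change, likelihood ratio score and p-value with FDR, per the file headers. The ratio of FDR to p-value gave 19734 genes tested by the authors, and the 752 genes deposited have an FDR of at most 0.0499.

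Effective library sizes were recovered as count over CPM. The counts of the 667 genes whose mean CPM was 1 or more (85 were left out) were fitted in edgeR 4.0.16 (R 4.3.3) and tested two-sided by quasi-likelihood. Benjamini-Hochberg adjustment ran over 19734 genes in edgeR's test, with those outside the table given the highest possible p-value. Genes pass below 0.05. The SE is the log2 fold change over the square root of F. The fit was also run on simulated counts with the same spread for all genes, adjusted over the fitted genes alone. That run does not test the adjustment used here. Because the table is selected on this contrast, the spread estimated from it may be too small. Exact two-sided permutation tests of the absolute difference in mean CPM used scipy 1.17.1.

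Alternatives were other filters, scalings, adjustments, DESeq2 1.42.0, limma 3.58.1, libraries left out and either pair of wild-type libraries. Spans come from GENCODE M21 (GRCm38), matched by identifier for 746 of 752 genes, and promoter windows from RefSeq (GRCm38.p6). The cytokines, gene lists, tests and alternatives were chosen with earlier results of these data known, and the motifs with the windows at hand. Named genes are the 3 cytokines, list genes in the table, table genes within 500 kb, and the 3 best correlated genes of each cytokine.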

Additional observations from a re-analysis of the deposited data

Results flagged for a closer look

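Dixon's 95% critical value for 4 values was applied to the wild-type CPM of 54 genes, to find libraries that stand far from the remaining ones of their group. Chance gives about 2.7 such libraries in that many genes, and 4 were found. None concerned Il10, Il6 or Il16. Wild-type replicate 4 stood apart for 3 genes. It had 73.4 CPM of Nfatc1, against 69.6 to 70.1 CPM elsewhere in wild type, and 172.4 CPM of Creb1, against 154 to 156 CPM. It had 88.1 CPM of Tagln2, the gene closest to Il10 in pattern, against 95.5 to 96.3 CPM. In replicate 3 the level of Cd86 was 217.5 CPM, against 255 to 260 CPM. The test was not run on the 3 Batf KO libraries.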

How the results depend on the processing

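Il10 and Il16 kept their direction and passed under all 17 alternatives (log2 fold change 1.65 to 2.05 and -1.27 to -1.09), as they do in the authors' deposited table. Of these alternatives, the adjustment within the table re-used the main fit, so a gene that passes the main test cannot fail it. Il6 kept its direction in all 17 and passed in 5, the adjustment within the table among them. Its log2 fold change and edgeR adjusted p were -0.69 and 0.00178 when adjusted over the fitted genes of the table alone, -0.74 and 0.0321 with TMM factors from the table, and -0.86 and 0.0137 with wild-type replicates 3 and 4 only. DESeq2 gave -0.69 and 0.000302, and the authors' deposited table gives -0.69 and 3.48e-05. With 1 library left out the Il6 value ran from -0.78 to -0.59 and passed without wild-type replicate 1. Adjusted within the table all 667 fitted genes passed (highest adjusted p = 0.0347, edgeR), so that pass says nothing of Il6. The adjustment within the table is less strict by construction, and the cause of the other changes was not tested. Instead of 134 higher and 152 lower genes there were 339 and 328 within the table, 265 and 304 with DESeq2, and 70 and 85 with wild-type replicates 1 and 2 only. With 1 library left out they ran from 50 to 124 and from 78 to 139, the lowest without Batf KO replicate 2. They were 57 and 82 without Batf KO replicate 1, and 86 and 86 without replicate 3. Where the groups do not overlap, as for 96.1% of fitted genes, leaving out a library cannot turn the sign of the difference in means. Kept directions, those of the 3 cytokines included, are thus no added evidence. Of 51 other named genes none reversed in any of 863 values under the alternatives. A call was lost in 72 of these values, over 12 genes, and gained in 75, over 27 genes, the adjustment within the table included. No paired analysis was possible because no title number occurs in both genotypes. The low read numbers of Il19 and Il23r limit what can be said of them.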

Other observations

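A few genes of the lists had a mean below 1 CPM and were left out of the test, and the values below are adjusted edgeR p-values without that filter and ratios of reads per library size with exact 95% intervals for counting error. Il19, an IL-10 family gene 79.7 kb from Il10 on the opposite strand, had 2, 0, 3 and 1 reads in wild-type replicates 1 to 4 and 8, 6 and 5 reads in Batf KO replicates 1 to 3. The ratio was 5.43 (2.08 to 16.6), and it did not pass (adjusted p = 0.107). Il1r2, the decoy receptor of IL-1, had 83 reads in wild type and 105 in Batf KO, a ratio of 2.17 (1.61 to 2.93), and passed (adjusted p = 0.0395). Il23r had 2 and 13 reads, a ratio of 11.1 (2.52 to 102), and did not pass (adjusted p = 0.0993). Cebpd, a C/EBP factor gene, had 21 and 34 reads, a ratio of 2.77 (1.56 to 5.03), and did not pass (adjusted p = 0.143). The mast cell marker Kit had a ratio of 4.01 (2.86 to 5.70) and did not pass (adjusted p = 0.1003). All 5 are in the authors' deposited table with an FDR below 0.05, as its selection requires.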
